A study of Mus musculus with 292 samples.

Results

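Brains with the lowest measured level of Bpnt1 RNA were compared with those with the highest. The 292 arrays of the series, 1 per mouse, were ranked by the log10 ratio of the Bpnt1 probe with the larger SD, and the 73 lowest and 73 highest arrays formed the low group and the high group, so the members were chosen by their measured Bpnt1 values. The comparison thus used 146 of 292 arrays, and the 146 arrays between the low and high groups served as a separate set. Because the ratio of Bpnt1 itself chose the arrays, its own values are a description and were not tested. Every other gene was then compared between the low and high groups, with genes on chromosome 1, where Bpnt1 lies, kept apart from the rest.

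All mice were F2 animals, females and males, whose F1 parents came from crosses of inbred C57BL/6J mice with inbred C3H/HeJ mice, made in both directions. Every mouse had a chow of 4% fat to week 8, followed by 12 weeks on Western food (42% fat, 0.15% cholesterol), and its brain was taken at 20 weeks following a 12-hour fast. Each brain RNA, labelled with Cy3, was hybridised against 1 pool of all the RNAs, labelled with Cy5, and the deposited value is taken as the log10 ratio of mouse to pool. No genotypes were used, so the RNA level of Bpnt1 and the parental origin of the chromosome around it cannot be told apart. Probe sequences were not at hand, so strain variants under a probe could not be checked. Whether a ratio differs by RNA level or by such a variant was not tested, for Bpnt1 or any other gene. Sex and cross direction are not given per mouse in the sources used here, and each group mixes both in unknown shares. A ratio to a pool gives no level of one gene against another, so the labelled tissue could not be checked by how strongly brain markers were expressed.

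Bpnt1 encodes bisphosphate nucleotidase, a cytosolic phosphatase that lithium inhibits. Its best known substrate is PAP, the nucleotide left over when a sulfotransferase moves sulfate from the donor PAPS to a steroid, a transmitter, a protein or a sugar chain. It also removes a phosphate from inositol phosphates, and PAP that is not broken down can block RNA-degrading exonucleases and sulfotransferases. In an F2 cross, genes on the same chromosome tend to be inherited together, the more so the closer they lie.

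The start of Bpnt1 is shown first because the ranking rests on this gene's RNA. The sequence is the RefSeq promoter window of assembly GRCm38.p6, chr1:185331909-185332208 on the plus strand, which runs from 250 bases before the gene's start to 50 after it.

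Bpnt1: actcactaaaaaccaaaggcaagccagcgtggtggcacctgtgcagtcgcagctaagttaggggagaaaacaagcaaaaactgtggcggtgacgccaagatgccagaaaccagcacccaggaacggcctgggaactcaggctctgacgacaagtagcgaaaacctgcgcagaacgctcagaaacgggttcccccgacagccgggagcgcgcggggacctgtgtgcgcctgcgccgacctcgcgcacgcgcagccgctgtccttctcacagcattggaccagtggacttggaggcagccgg

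That window has a GC content of 61.3% and holds 24 CG pairs in 300 bases. Nothing in the files measured methylation or binding there.

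In the low group the Bpnt1 ratio ran from -0.319 to -0.138 with a median of -0.221. In the high group it ran from 0.0645 to 0.216 with a median of 0.143, and the arrays between them ran from -0.135 to 0.064 with a median of -0.00243. The groups cannot overlap, since the ratio defined them. The mean was -0.223 ± 0.0399 (SD, n = 73) in the low group and 0.141 ± 0.0357 (SD, n = 73) in the high group, a 2.31-fold difference in the geometric mean. At the lower edge the last array inside had -0.1383 and the first outside -0.1351, and at the upper edge the last outside had 0.0640 and the first inside 0.0645. Both edges therefore pass between nearly equal arrays.

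The 292 values fell into a low, a middle and a high cluster. A mixture of 3 Gaussian components with equal variance put 76 arrays in a component with a mean of -0.22, 149 in 1 with a mean of 0.00503 and 67 in 1 with a mean of 0.146. All 73 arrays of the low group belonged to the low component. The high group held the 67 arrays of the high component and 6 of the middle component. The low and high groups were thus nearly the same arrays as the outer clusters, and the gap between clusters was wider on the low side than on the high side.

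**Figure D1:**
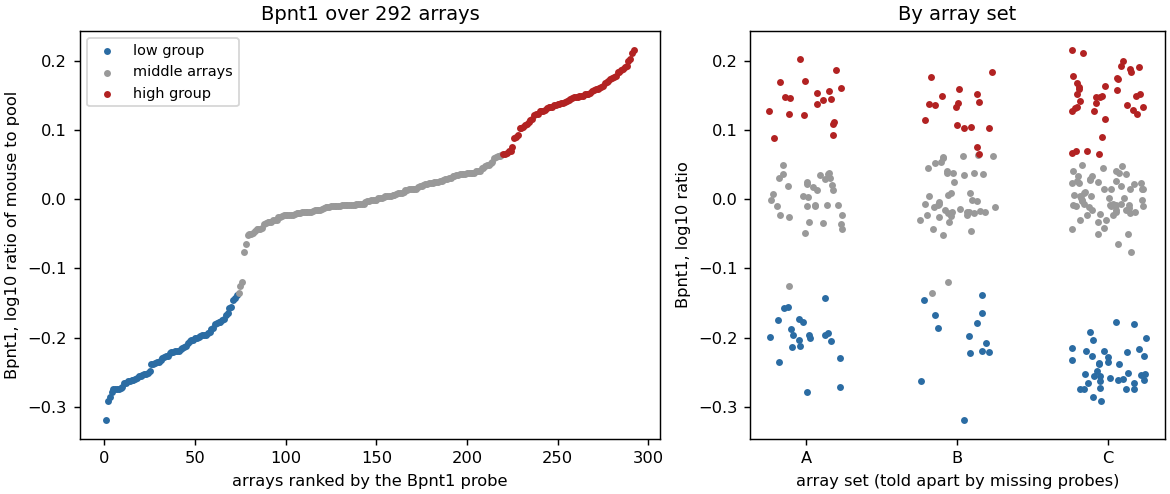
The left panel plots the log10 ratio of Bpnt1 (mouse to pool) for the 292 arrays in rank order, and the right panel plots the same values by array set; each point is 1 mouse, blue for the low group, grey for the middle arrays and red for the high group. The low cluster stands apart near -0.22, while the step to the high cluster lies just above the upper edge at 0.0645.

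A second Bpnt1 probe gave nearly the same ranking. Its SD over all arrays was 0.1351 against 0.1354 for the probe used, and ranking by it would have kept 73 of the low and 72 of the high arrays. Its ratio ran from -0.318 to -0.133 in the low group and from 0.056 to 0.208 in the high group. Both probes read the same samples on the same arrays, so they are not independent support.

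The arrays came in 3 sets that can be told apart by which probes are missing on them, here called A, B and C; set C holds the mouse numbers from 213 and sets A and B those up to 212. The low group held 21, 13 and 39 arrays of sets A, B and C, and the high group held 19, 17 and 37. The mouse-number block (up to 212 or from 213) was a covariate in every test. The SD of an array over all probes was at most 0.105 in the low and high groups, and the 3 arrays above 2 times the median SD were all middle arrays. Over pairs of arrays of the low and high groups the correlation across probes had a median of 0.119, and 3.39% of the pairs lay under -0.3. The direction of the ratio is likely rather than stated. Turning the sign of every value and ranking again swaps the low and high groups, so the counts are the same by construction. Which mice are called low, and which group the middle arrays lie nearer to, depend on the direction taken here.

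Between the low and high groups, 1258 of 23547 probes differed at an adjusted p under 0.05 (limma with Benjamini-Hochberg adjustment over all probes but those of Bpnt1), which is 5.34% of the probes tested, and 59 of them (0.251%) differed by at least 1.2-fold. The ratio was higher in the high group for 694 and lower for 564 of them. In bulk brain RNA, fewer cells of a type and less RNA per cell cannot be told apart. Below, a difference is the high minus the low group in log10 ratio, given with its SE, and a gene is called where the adjusted p is under 0.05.

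Chromosome 1 carried a larger share of called genes than the other chromosomes. Of its 615 measured genes, 105 were called, 54 higher and 51 lower, which is 17.1%. Of 10218 genes elsewhere 475 were called, 234 higher and 241 lower, which is 4.65%. Among the other autosomes and X the share ran from 2.85% on chromosome 15 to 6.95% on chromosome 18, and none of the 8 measured genes on Y was called. With a difference of at least 1.2-fold required as well, 26 genes remained on chromosome 1 (4.23%) and 6 remained elsewhere (0.0587%), beside 0.295% of all named genes. The median of all differences was -0.00048 on chromosome 1 and -0.00109 elsewhere, so neither set was shifted as a whole. Of the called chromosome 1 genes, 104 of 105 had the same sign in both mouse-number blocks, and 39 were called in each block alone. Off chromosome 1 the same sign was found for 473 of 475, and 14 genes were called in each block alone. These genes were called on both blocks together, which favours an equal sign, so the sign counts are a description and no support.

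**Figure D2:**
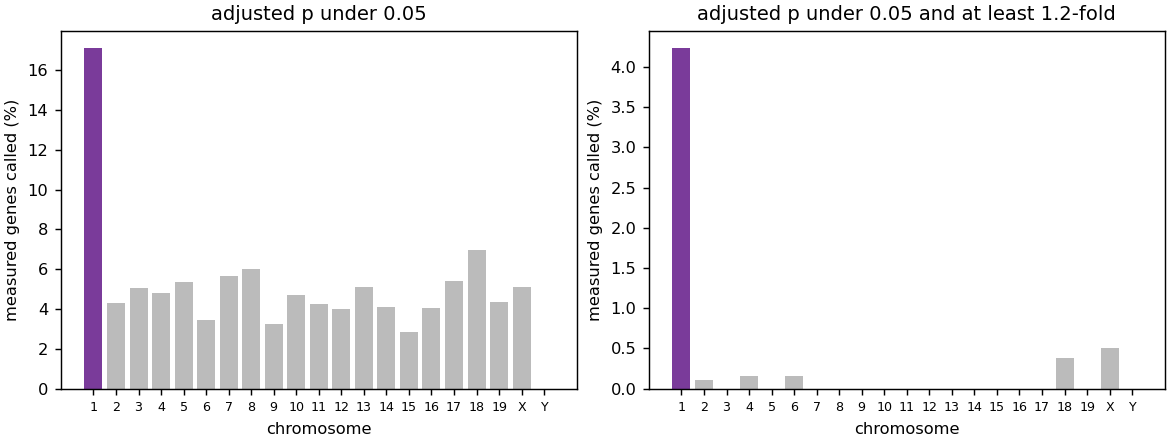
Bars give the percentage of measured genes called on each chromosome, at an adjusted p under 0.05 (left) and with at least a 1.2-fold difference as well (right); bars start at 0 and chromosome 1 is purple. Chromosome 1 stands at 17.1% on the left and 4.23% on the right, and every other chromosome lies at or below 6.95% on the left.

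The large differences on chromosome 1 did not lie beside Bpnt1. Counted in measured genes in the order of the gene table, the share called was 12% in the 25 genes next to Bpnt1 on the proximal side, and 32%, 44%, 40%, 24% and 44% in the following 5 groups of 25 going proximally. Farther on it was 20% and 24%, and in the groups of 25 beyond 200 genes from Bpnt1 it ran between 4% and 20%. On the distal side 32% of the nearest 25 genes were called, and only 3 further measured genes follow before the end of the chromosome, none of them called. The 10 largest differences on the chromosome all lay between 48 and 137 measured genes proximal to Bpnt1. Gene order is not distance, and genes without a probe are not counted in it.

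**Figure D3:**
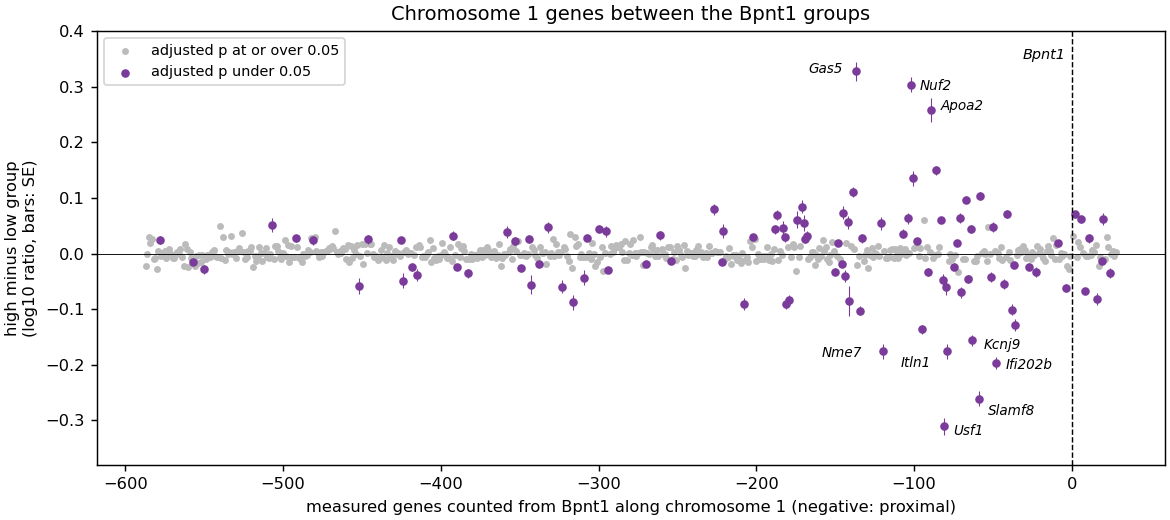
Each point is 1 of the 615 measured chromosome 1 genes, placed by the number of measured genes between it and Bpnt1 (dashed line, negative to the proximal side), with the difference in log10 ratio between the high and the low group on the vertical axis; purple points have an adjusted p under 0.05 and bars are 1 SE. The tallest points, from Gas5 at 0.328 to Usf1 at -0.311, lie left of Bpnt1, and both directions occur side by side.

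Gas5, the host gene of small nucleolar RNAs and a non-coding transcript that growth arrest raises, had the largest difference. Its ratio ran from -0.368 to 0.123 with a median of -0.243 in the low group, and from -0.239 to 0.302 with a median of 0.136 in the high group. The low and high groups overlapped in their tails, and 41 of the 73 high arrays lay above every array of the low group. The difference was 0.328 ± 0.0174, or 2.13-fold (limma adjusted p = 4.69e-37), with 0.359 up to mouse 212 and 0.299 from mouse 213.

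Nuf2, a kinetochore protein needed for chromosome segregation, moved the same way. Its ratio ran from -0.327 to 0.0779 (median -0.217) in the low group and from -0.0896 to 0.278 (median 0.113) in the high group. Of the low arrays, 63 of 73 lay below every array of the high group. The difference was 0.304 ± 0.0136, or 2.01-fold (limma adjusted p = 2.06e-44).

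Apoa2, an apolipoprotein of high-density lipoprotein, was also higher in the high group. It ran from -0.553 to 0.208 (median -0.133) in the low group and from -0.101 to 0.77 (median 0.0919) in the high group. A single array of the high group stood far above the others, and the ranges overlapped. The difference was 0.259 ± 0.0217, or 1.82-fold (limma adjusted p = 1.96e-20), with 0.267 and 0.252 in the blocks. Ppox, the mitochondrial enzyme of the next to last step of haem synthesis, lies 3 measured genes from Apoa2 and was 1.41-fold higher (difference 0.150 ± 0.00849). Its median rose from -0.0943 to 0.0733, and 61 of 73 low arrays lay below every high array.

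Usf1, an E-box binding transcription factor of glucose and lipid genes, went the other way. It ran from -0.0752 to 0.282 (median 0.107) in the low group and from -0.47 to 0.076 (median -0.207) in the high group. Of the high arrays, 63 of 73 lay below every low array. The difference was -0.311 ± 0.0153, or 2.04-fold (limma adjusted p = 1.98e-40). The second Usf1 probe was called in the same direction with a smaller difference of -0.0865 ± 0.00737. The size of the Usf1 difference therefore rests on the probe, while its direction was that of both.

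Slamf8, a receptor of macrophages, fell from a median of 0.0842 (range -0.0573 to 0.312) to -0.18 (range -0.348 to 0.117). The difference was -0.261 ± 0.0136, or 1.82-fold, and 62 of 73 high arrays lay below every low array. Ifi202b, an interferon-inducible DNA-binding protein, fell from a median of 0.108 (range -0.0258 to 0.317) to -0.103 (range -0.2 to 0.0903). The difference was -0.197 ± 0.011, or 1.57-fold, and 60 of 73 high arrays lay below every low array. None of the 7 measured microglial markers was called, where 5.35% of all named genes were. The lower Slamf8 ratio thus did not come with a called change in those markers.

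Of the remaining 3 of the 10 largest differences, all were lower in the high group. Nme7, a nucleoside diphosphate kinase family member of the microtubule organising centre and cilia, fell from a median of 0.0975 to -0.105 (difference -0.176 ± 0.0134). Kcnj9, a subunit of the G protein-gated inward rectifier channels that damp neuronal firing, fell from a median of 0.0554 to -0.115 (difference -0.156 ± 0.00975, 1.43-fold). Itln1, an intestinal lectin, had a difference of -0.176 ± 0.0136 in the probe that stands for it. That call rests on 1 of its 5 probes: the other 4 had differences between -0.0135 and -0.00437 and were not called. The low and high groups overlapped more in these genes than in Usf1, with 35, 51 and 38 of 73 high arrays below every low array for Nme7, Kcnj9 and Itln1.

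Besides these 10, the genes with at least 1.2-fold on chromosome 1 were Nek2, described further on, and 15 others, which are named because they passed that fold, a choice made after their values were seen. Higher in the high group were the mural cell gene Rgs5 (0.135 ± 0.0127), Rabgap1l (0.111), the phosphatase gene Dusp23 (0.104), the ubiquitin ligase adaptor gene Dcaf8 (0.097), Odr4 (0.0843) and the kinase gene Dstyk (0.0798). Lower were the phosphatase gene Dusp12 (-0.136 ± 0.00836), the centrosomal Cep170 (-0.129), the death ligand gene Fasl (-0.103), the DNA repair exonuclease gene Exo1 (-0.101), Ptprv (-0.0913), the mitochondrial glutaredoxin gene Glrx2 (-0.0907), the neurogenic factor gene Hes6 (-0.0879), the tenascin gene Tnn (-0.0851) and the proteasome deubiquitinase gene Uchl5 (-0.0831). Both probes of Dusp12 were called, the second at -0.108, while the second probes of Rabgap1l (-0.0188) and Rgs5 (0.0308) were not. Odr4 was unequal in size between the blocks (0.0327 and 0.132), as was Tnn (-0.139 and -0.0353), though the interaction was not called for either (limma adjusted p = 0.0506 and 0.716). Of all 26 genes, 10 were higher and 16 lower, and the farthest, Hes6, lay 316 measured genes from Bpnt1.

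Neighbours in gene order did not move as 1 block. Slamf8 (-0.261) and Dusp23 (0.104) are next to each other among the measured genes and moved in opposite directions, while the adjacent Nuf2 (0.304) and Rgs5 (0.135) were both higher.

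**Figure D4:**
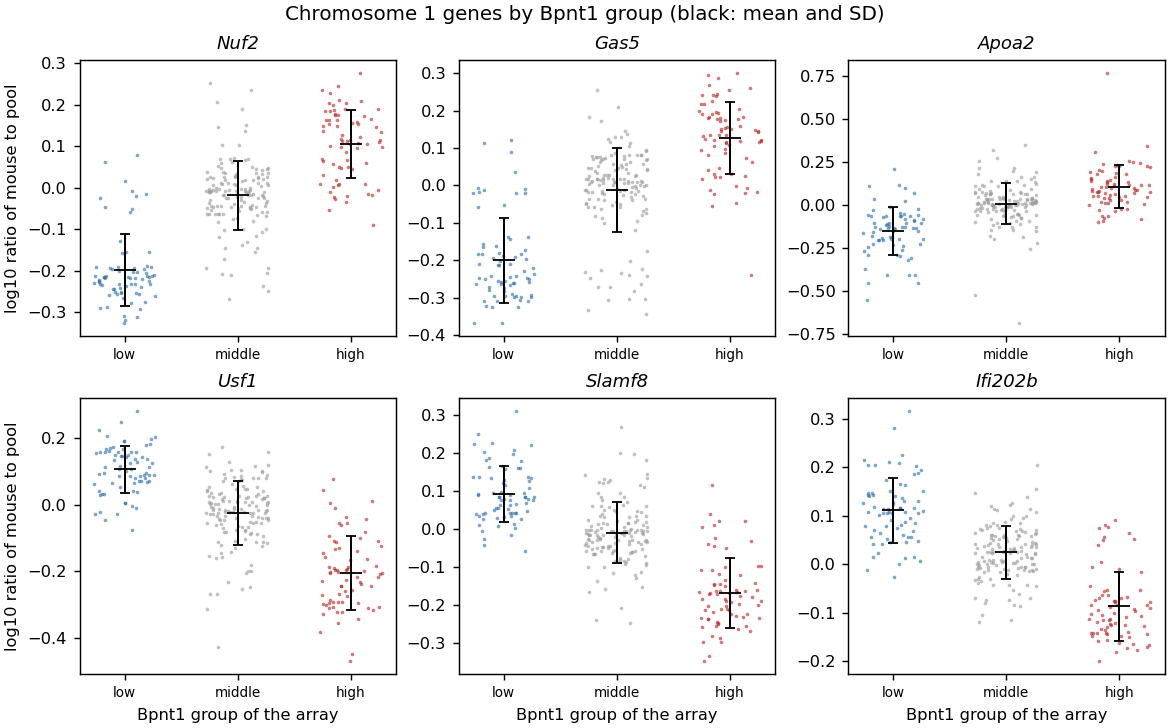
Log10 ratios of 6 chromosome 1 genes by Bpnt1 group, with each point 1 mouse (73 low, 146 middle, 73 high) and black bars the mean and SD. The upper row (Nuf2, Gas5, Apoa2) rises and the lower row (Usf1, Slamf8, Ifi202b) falls from the low to the high group, with the middle arrays in between.

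Next to Bpnt1 itself, differences were small. Among the 25 nearest measured genes on each side 11 of 50 were called (22%), 3 of 25 on the proximal side (12%) and 8 of 25 on the distal side (32%), and 1 of the 11 reached 1.2-fold. Mark1, a microtubule affinity regulating kinase and the nearest proximal gene, ran from -0.0543 to 0.109 in the low group and from -0.0606 to 0.0809 in the high group (difference -0.00418 ± 0.00477, limma adjusted p = 0.717). Eprs, the nearest distal gene and the tRNA synthetase for glutamate and proline, had medians of -0.0381 and -0.0135 (difference 0.0317 ± 0.0117, limma adjusted p = 0.0993). Neither immediate neighbour passed the test, though Eprs did when the 97 lowest were compared with the 97 highest arrays (limma adjusted p = 0.0371).

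The second distal gene was called. Lyplal1, a lysophospholipase-like hydrolase, ran from -0.132 to 0.0648 (median -0.00174) in the low group and from -0.0176 to 0.166 (median 0.0579) in the high group. The groups overlapped, yet 30 of 73 high arrays lay above every low array. The difference was 0.0704 ± 0.00646, or 1.18-fold (limma adjusted p = 8.3e-18). Smyd2, a lysine methyltransferase 8 measured genes away, went the other way, from a median of 0.0261 to -0.0344 (difference -0.0675 ± 0.006, limma adjusted p = 1.04e-18).

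The largest of the neighbouring differences was in Nek2, a centrosomal kinase of mitosis. It ran from -0.0867 to 0.16 (median 0.057) in the low group and from -0.428 to 0.116 (median -0.0259) in the high group. The difference was -0.0822 ± 0.0107, or 1.21-fold (limma adjusted p = 7.11e-10), and the blocks gave -0.0821 and -0.0822. A pair of potassium channel genes rose: Kcnk2, a background channel opened by stretch and lipids, by 0.0619 ± 0.00754, and Kcnh1, a voltage-gated ether-a-go-go channel, by 0.0622 ± 0.0105. Taf1a, a subunit of the RNA polymerase I selectivity factor 4 measured genes proximal, was lower by 1.15-fold (difference -0.0618 ± 0.00654).

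The other 5 called neighbours had differences of 1.08-fold or less. The laminin chain gene Lamb3 (-0.0348 ± 0.00933), the homeobox gene Mixl1 (-0.0334 ± 0.00891) and the signal adaptor gene Traf5 (-0.0128 ± 0.0037) were lower. Trp53bp2, which encodes the apoptosis regulator ASPP2, was higher (0.0190 ± 0.00612). Tatdn3, which encodes a TatD family nuclease, was higher by 0.0276 ± 0.00802, but its difference was -0.000711 up to mouse 212 and 0.0538 from mouse 213. Tatdn3 was called in the later mice and not in the earlier ones, but the difference between the blocks was itself not called (limma adjusted p = 0.285).

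The arrays between the low and high groups gave a separate reading. When they were split at their own median of Bpnt1, 843 of 23547 probes were called (3.58%), 23 of 615 genes on chromosome 1 (3.74%), 388 of 10218 elsewhere (3.8%) and 2 of the 50 nearest neighbours (4%). Within these 146 arrays chromosome 1 thus carried no larger share than the rest. Of the 23 called chromosome 1 genes, 3 were also called between the low and high groups, where 17.1% of all chromosome 1 genes were called. Elsewhere the overlap was 34 of 388, beside 4.65% called between the low and high groups. Of the 10 genes with the largest chromosome 1 differences, none was called there; Gas5 had -0.0113, Usf1 -0.0227 and Nuf2 0.0416 (adjusted p = 0.0557 for Nuf2). The arrays in this set span a narrower range of Bpnt1 than the low and high groups do. The middle mixture component held 143 of these 146 arrays, so the split lay within the middle cluster. It therefore could not show whether differences between the clusters hold.

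The partners of BPNT1 in sulfate and inositol phosphate metabolism were read from lists of known genes. Of the 4 measured genes for PAPS synthesis and PAP targets none was called by limma, and none had an unadjusted p under 0.05. Papss1 and Papss2, which make PAPS, had differences of 0.00502 ± 0.00847 and 0.0285 ± 0.0178. The exonucleases Xrn1 and Xrn2, which PAP can inhibit, had differences of -0.00736 and -1.41e-05. The list's median was 0.0025, beside -0.00104 over all named genes, of which 5.35% were called.

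Of 9 measured cytosolic sulfotransferases 1 was called, Sult5a1, which was lower by a difference of -0.0159 ± 0.00507 (limma adjusted p = 0.0423). Of 19 measured Golgi sulfotransferases 2 were called, both higher. Chst10, which adds sulfate to the HNK-1 sugar of neural adhesion molecules, rose by 0.052 ± 0.0127 and lies on chromosome 1, 507 measured genes from Bpnt1. Tpst1, a tyrosylprotein sulfotransferase, rose by 0.0198 ± 0.00494. The medians of the 2 lists were -0.0085 and 0.0113, beside -0.00104 over all named genes. Of all named genes 5.35% were called, and of those on chromosome 1 17.1%, so these few calls are no result about the lists.

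Of 7 measured inositol phosphate phosphatases and kinases 1 was called. Itpka, a neuronal kinase of inositol trisphosphate found in dendritic spines, had medians of -0.0644 in the low and -0.0108 in the high group. Its low and high groups overlapped widely, with 5 of 73 high arrays above every low array, and the difference was 0.0475 ± 0.00929 (limma adjusted p = 0.000107). Inpp1, the phosphatase most alike BPNT1 in its substrates on this list, had -0.00595 and was not called. Among all named genes 5.35% were called.

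Off chromosome 1 the 6 genes that were called with at least 1.2-fold lay on 5 chromosomes. Mybpc3, a sarcomere protein of heart muscle, had the largest difference. It ran from -0.0972 to 0.235 (median 0.0452) in the low group and from -0.68 to 0.13 (median -0.0804) in the high group. The low and high groups overlapped, and 35 of 73 high arrays lay below every low array. The difference was -0.127 ± 0.0149, or 1.34-fold (limma adjusted p = 6.95e-12), with -0.173 up to mouse 212 and -0.0838 from mouse 213.

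Frmd3, a FERM domain protein of the membrane skeleton, fell from a median of 0.0525 (range -0.0221 to 0.124) to -0.0585 (range -0.16 to 0.0983). The difference was -0.0884 ± 0.00766, or 1.23-fold (limma adjusted p = 1.9e-19). That call also rests on 1 probe: the second Frmd3 probe had a difference of 0.00686 ± 0.00708. Snrpd1, a core Sm protein of the spliceosome, rose from a median of -0.00763 to 0.0659, and both of its probes were called (0.0819 ± 0.00934 and 0.0688 ± 0.00834). Of 8 measured small nuclear ribonucleoprotein genes, a list drawn up after these values were seen, Snrpd1 and Snrpc were called and the other 6 were not, beside 5.35% called among all named genes. Bex1, a small X-linked protein of neurons, rose from a median of -0.0347 to 0.03 (difference 0.0817 ± 0.00923), and its X-linked relatives Bex2 (0.0558 ± 0.00577) and Tceal1 (0.0324 ± 0.0053) were called higher as well. Of 5 measured Bex and Tceal genes, a list drawn up after these values were seen, the other two were not called, against the same 5.35%.

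The remaining 2 of the 6 genes, Slc7a3 and Mthfd2, belong with Atf4 to the amino acid response. ATF4 is a transcription factor that is made when amino acids run short or unfolded proteins build up, and it switches on genes for amino acid uptake, amino acid synthesis and tRNA charging. Atf4 itself ran from -0.0932 to 0.0308 (median -0.0344) in the low group and from -0.0825 to 0.159 (median 0.0559) in the high group. Of the high arrays, 45 of 73 lay above every low array. The difference was 0.0718 ± 0.00795, or 1.18-fold (limma adjusted p = 3.97e-13).

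Slc7a3, a transporter of arginine and lysine, ran from -0.183 to 0.112 (median -0.0155) in the low group and from -0.11 to 0.258 (median 0.0786) in the high group. The difference was 0.107 ± 0.0132, or 1.28-fold (limma adjusted p = 8.66e-11). Mthfd2, a mitochondrial enzyme of folate metabolism, rose from a median of -0.0343 to 0.0714 (difference 0.0851 ± 0.0105, limma adjusted p = 7.74e-11). Asns, asparagine synthetase, rose from a median of 0.0189 to 0.0463 (difference 0.0504 ± 0.00846, limma adjusted p = 3.27e-06), and Cars, the tRNA synthetase for cysteine, from -0.00658 to 0.0288 (difference 0.0405 ± 0.00696). In each of these genes the low and high groups overlapped, and the high group had the wider spread.

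A list of ATF4 and genes it is known to switch on was drawn up after these values were seen, so its count is a description and no support. Of its 20 measured members 11 were called higher and 1 lower, where 5.35% of all named genes were called, with a median difference of 0.0252 beside -0.00104 over all named genes. Besides Slc7a3, Mthfd2, Atf4 and Asns, the higher ones were Atf5 (0.0492), Aldh18a1 (0.0373), Cebpg (0.0352), Slc7a5 (0.0346), Eif4ebp1 (0.0318), Slc3a2 (0.025) and Nupr1 (0.0196). Ddit3, which encodes the stress factor CHOP, was the lower one, at -0.0248 ± 0.00609 (limma adjusted p = 0.00383). Among the 8 members that did not pass were Atf3, which lies 13 measured genes distal of Bpnt1 (0.0069 ± 0.0116), Slc38a2 (0.0187 ± 0.0111) and Sesn2 (0.0242 ± 0.0109). Of 8 measured cytosolic tRNA synthetases only Cars was called.

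The RefSeq promoter windows (GRCm38.p6) of 2 called members hold the letters of an amino acid response element, and they are shown for that reason. The letters searched were TGATGNAA on both strands, in capitals below. The Asns window is chr6:7693160-7693459 on the minus strand, and the Nupr1 window is chr7:126625421-126625720 on the minus strand, where the capitals are the element on the opposite strand.

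Asns: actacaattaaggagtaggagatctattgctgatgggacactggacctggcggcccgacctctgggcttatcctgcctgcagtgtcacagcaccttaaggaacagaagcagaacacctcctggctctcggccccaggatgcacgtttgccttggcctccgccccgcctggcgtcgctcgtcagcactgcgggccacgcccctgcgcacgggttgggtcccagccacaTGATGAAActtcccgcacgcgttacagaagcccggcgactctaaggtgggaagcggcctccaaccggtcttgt

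Nupr1: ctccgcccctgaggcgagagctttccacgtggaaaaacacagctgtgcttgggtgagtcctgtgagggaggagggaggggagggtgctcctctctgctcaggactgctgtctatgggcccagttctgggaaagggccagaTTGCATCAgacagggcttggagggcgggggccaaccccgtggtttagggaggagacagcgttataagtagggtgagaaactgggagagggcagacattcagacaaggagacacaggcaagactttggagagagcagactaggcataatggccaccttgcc

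These letters occur in 4.51% of 27025 genes with a window. They occur in 2 of the 8 called higher members that have a window and in 3 of the 8 other measured members with one, Atf3, Slc7a11 and Vldlr. A match in this window is a description, and the letters did not separate the called members from the rest.

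For 3 of the 12 called members of the ATF4 list the difference was unequal in the mouse-number blocks, and for the other 9 the test of this was not passed. The test of group by block called 7 of 23547 probes (0.0297%), and 6 of them stand for named genes off chromosome 1 (0.0587% of those tested). Atf4 differed by 0.113 up to mouse 212 and by 0.0342 from mouse 213 (interaction -0.0785, limma adjusted p = 0.00334). Slc7a3 differed by 0.17 and 0.0483, Mthfd2 by 0.137 and 0.0371, and Cars by 0.0741 and 0.00954. From mouse 213 on, none of these 4 was called, nor was any of the 12 called ATF4 list members (lowest limma adjusted p = 0.161, for Atf4). Up to mouse 212, 9 of the 12 were called. Calls were fewer in the later block in general. Of 10218 genes off chromosome 1, 335 were called up to mouse 212 and 23 from mouse 213. All 12 list members had the same sign in both blocks, which calling them on both blocks together favours. Bex2 differed by 0.0816 and 0.0319, and Frmd3 by -0.132 and -0.0484. All 6 genes were thus further apart in the earlier mice, in sets A and B alike. In set A the difference of Atf4 was 0.117 and in set B 0.108. No chromosome 1 gene was called in the test of group by block. There, 47 of 615 chromosome 1 genes had an unadjusted p under 0.05, beside 738 of 10218 genes elsewhere.

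The position of the middle arrays was then compared with the midpoint of the low and high groups, a test added after the data had been seen. It called 6 of 10834 named genes (0.0554%): Atf4, Mthfd2, Slc7a3, Cars, Asns and Frmd3. In all 6 the middle arrays lay nearer to the low group. In Atf4 the mean ratio, with the block as covariate, was -0.03 in the low group, -0.023 in the middle and 0.0423 in the high group, so the middle had gone 9.6% of the way (off the midpoint by -0.0292 ± 0.00533, limma adjusted p = 0.000715). Mthfd2 had gone 8.34%, Slc7a3 10.3%, Asns 0.0358%, Frmd3 23.3% and Cars -7.87% of the way.

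On chromosome 1 no called gene was called off the midpoint. Of the 26 called genes with at least 1.2-fold none passed, 7 had an unadjusted p under 0.05 (26.9%, beside 4.36% of all named genes), and the median position was 47.9% of the way. Among called genes of any fold that share was 16.2% on chromosome 1 and 19.8% elsewhere. All 6 called genes elsewhere with at least 1.2-fold had an unadjusted p under 0.05. Nuf2 lay off the midpoint by 0.0277 ± 0.00981 and Slamf8 by 0.0279 ± 0.00949, about as far as Atf4 in log10 ratio. Gas5 had gone 57.9% and Usf1, Nuf2 and Slamf8 lay between the low and high groups as well. Bpnt1 itself stood at 61.1% of the way, as the ranking set it. From mouse 213 on, no gene was called off the midpoint by limma, and 443 had an unadjusted p under 0.05. Up to mouse 212 it was 6 genes, of which 5 were the same, with Bex2 in place of Asns. Whether this position differs between the blocks was not tested.

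**Figure D5:**
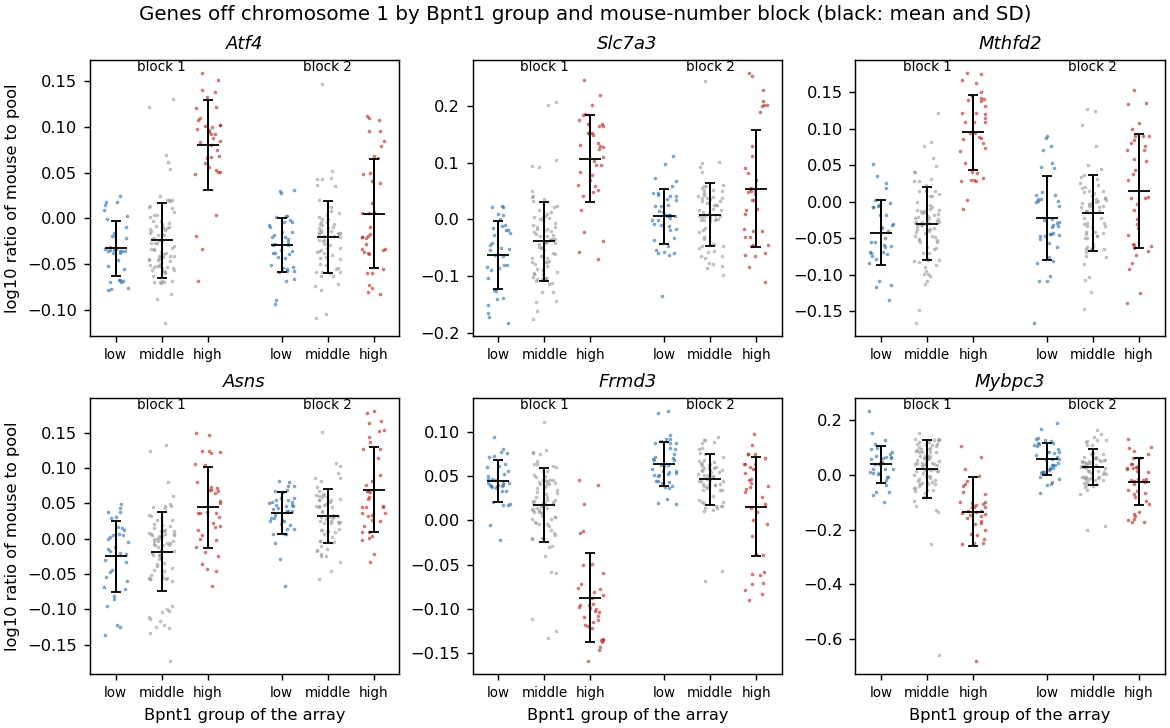
Log10 ratios of 6 genes off chromosome 1 by Bpnt1 group, shown for mouse numbers up to 212 (block 1) and from 213 (block 2); each point is 1 mouse and black bars are the mean and SD. In block 1 the high group of Atf4, at a mean of 0.0798, stands apart from the low and middle groups, and in block 2 it spreads over both levels.

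Of the 14 genes off chromosome 1 that were called in each block alone, 4 were picked out, a choice made after their values were seen. Fastk, a kinase-like protein of mitochondrial RNA, was lower by -0.0579 and -0.0572 in the blocks (-0.0575 ± 0.00487 in all, limma adjusted p = 4.2e-20). The probe annotated to Cd3e, a chain of the T cell receptor complex, had -0.0503 and -0.0574 (-0.054 ± 0.00491, limma adjusted p = 4.83e-18). Dpep1, a membrane dipeptidase, had -0.0357 and -0.0368, and the spliceosome gene Snrpc 0.0586 and 0.0392. The middle arrays of Fastk and Cd3e lay 49.9% and 46.7% of the way between the low and high groups.

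The other genes with the largest differences off chromosome 1 were smaller than 1.2-fold. Casr, the calcium-sensing receptor, was higher by 0.0708 ± 0.0175, with 1 array of the high group at 0.915. Rab27b, a GTPase of secretory vesicles (0.0694), Gsta2, a glutathione transferase (0.0667), Ube2d3, a ubiquitin conjugating enzyme (0.0662), Slc16a7, a monocarboxylate transporter (0.0634) and Prkca, protein kinase C alpha (0.0634) were higher. Rnaseh2c, a subunit of ribonuclease H2 (-0.0663), and the collagen gene Col27a1 (-0.0644) were lower. Each of these genes was called up to mouse 212 alone, but from mouse 213 alone only Rab27b was (limma adjusted p = 0.0125). Prkca, for example, had 0.0994 and 0.0301 in the blocks, and Casr 0.0747 and 0.0672. The test of group by block called none of them.

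Markers of cell types and regions that a dissected brain can hold in unequal amounts were mostly uncalled. So were most named genes, of which 5.35% were called. None was called among 7 astrocyte, 7 oligodendrocyte, 7 microglial, 4 erythrocyte, 6 choroid plexus, 6 olfactory bulb and 5 pituitary markers. Eno2, a neuronal enolase, was the 1 of 6 neuronal markers called, lower by -0.0304 ± 0.0084. Crabp2 was the 1 of 7 leptomeningeal markers called, higher by 0.0189 (limma adjusted p = 0.0489). Rgs5, a marker of vessel mural cells, was higher by 0.135 ± 0.0127, but it lies on chromosome 1, 101 measured genes from Bpnt1. Its second probe was not called (0.0308 ± 0.0108), and neither were the other 7 vessel markers. Growth hormone (Gh) had a difference of -0.1 ± 0.112 (limma adjusted p = 0.71), so an unequal share of pituitary tissue between the low and high groups was not detectable beyond this spread. None of the 8 Y-linked genes was called or had an unadjusted p under 0.05 with limma, and 20 of 392 X-linked genes were called (5.1%).

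Probes with no gene name here behaved like the named ones. Of 10904 such probes 581 were called (5.33%), 24 of them with at least 1.2-fold. The largest of these differences was 0.22 in size, so some sizeable differences have no gene name here.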

How the data were processed

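The data were 292 arrays of 2 colours, each of the brain RNA of 1 F2 mouse against a pool. The authors deposited 1 table of values taken here as log10 ratios of mouse to pool; their scanner processing, normalization, log base and direction are not stated in the sources used here. No intensities were used, so signal over background is unknown and the number of arrays limits the precision. The table held 23574 probes; 25 missing on over 5% of the arrays were left out and the mean of a probe replaced its missing values, 252 in all. Array medians ran from -0.0073 to 0.0133, and no centring was applied. The platform annotation gave 13665 probes 1 gene and 48 several genes, and 12662 probes matched a gene of the RefSeq table of GRCm38.p6, used for names, chromosomes and gene order. The probe with the largest SD stood for each of 10835 genes.

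The low and high groups were compared with limma 3.58.1 (R 4.3.3), with the mouse-number block as covariate and Benjamini-Hochberg adjustment over 23547 probes. The interaction of group with block, a split of the middle arrays and the middle arrays against the midpoint of the low and high groups were tested likewise, and Bpnt1 was described with mclust 6.1.1. Named genes were both Bpnt1 probes, the called genes among the 25 nearest on each side with the nearest on each side, the 10 largest other differences on chromosome 1, the 15 largest elsewhere with the same sign in both blocks, and list members. The members and lists were chosen with earlier results of these data known, and 4 lists (ATF4 and its known targets, tRNA synthetases, small nuclear ribonucleoproteins, Bex and Tceal genes) after the values of these low and high groups. Low and high groups of 23549 probes were also simulated with independent Gaussian noise, with 50 probes changed at each size. Of the probes changed by 1.05, 1.1, 1.2 and 1.5-fold, 32%, 76%, 96% and 100% were called in the right direction. Correlation between probes was not simulated and more probes differed in the data, so these shares need not hold there. Alternatives covered the block, the ranking, the size of the groups, centring, scaling, array weights, missing values and the fold. Sex and cross direction entered no test.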

Additional observations from a re-analysis of the deposited data

Results flagged for a closer look

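In 6 genes the difference between the Bpnt1 groups was unequal in the mouse-number blocks by a test of group by block (limma, adjusted over all probes). The value is the difference from mouse 213 on minus that up to mouse 212. It was -0.121 for Slc7a3 (adjusted p = 0.0102), -0.100 for Mthfd2 (0.00673), -0.0785 for Atf4 (0.00334), -0.0646 for Cars (0.00929), -0.0497 for Bex2 (0.0324) and 0.0836 for Frmd3 (0.000229). In each gene the sign was the same in both blocks and the earlier mice had the larger difference. The later block is set C alone and the earlier block holds sets A and B, as inferred from missing probes. Between the blocks, mouse number and array set therefore cannot be told apart.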

How the results depend on the processing

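No paired analysis was possible because each mouse had 1 array and the low and high groups share no replicate numbers. With the array set as covariate, ranking within blocks, the outer mixture components, the other Bpnt1 probe, centring, scaling, missing values left missing or the sign turned, the counts of called probes, chromosome 1 genes, genes elsewhere and nearest neighbours stayed within 1.5 times the reported ones. Between them, chromosome 1 counts ran from 100 to 114 and those elsewhere from 450 to 537. Without the block they were 87 and 346, with array weights 116 and 584, and with the first principal component 121 and 660. Turning the sign only swaps the low and high groups, so its counts were fixed in advance. The outer mixture components and the other Bpnt1 probe used nearly the same arrays, so similar counts there are no separate support.

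Counts of probes, chromosome 1 genes, genes elsewhere and neighbours, in this order, moved with the arrays used. Set A alone gave 231, 44, 73 and 4, and set B alone 185, 31, 56 and 4. From mouse 213 they were 151, 53, 23 and 7. Up to mouse 212, chromosome 1 had 67 and the neighbours 7. The 58 lowest against the 58 highest arrays gave 2496 probes and 1013 genes elsewhere, and 97 against 97 gave 3393 probes, 1358 genes elsewhere and 17 neighbours. At least 1.2-fold gave 59, 26, 6 and 1. The cause of the larger counts under both was not tested. The split middle arrays gave 23 chromosome 1 genes and 2 neighbours.

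The 2 called neighbours in the middle arrays became 7 with array weights, 1 with array set, centring, the first principal component, no block or mice up to 212 alone, and 0 with 1.2-fold, set A, set B or mice from 213 alone. The 7 probes of the block interaction became 37 with scaling, 123 with array weights, 18 with the principal component and 4 with 1.2-fold. The 6 genes off the midpoint became 0 from mouse 213.

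In the split middle arrays, a split within the middle Bpnt1 cluster for nearly all of them, 22 of the named called genes had the opposite sign. These were Nek2 (0.00592), Smyd2 (0.00619), Kcnh1 (-0.0112), Kcnk2 (-0.0107), Taf1a (0.00774), Gas5 (-0.0113), Slamf8 (0.00242), Nme7 (0.00586), Itln1 (0.0187), Kcnj9 (0.00597), Slc7a3 (-0.000816), Mthfd2 (-0.00788), Atf4 (-0.0192), Rnaseh2c (0.00975), Col27a1 (0.00884), Itpka (-0.0243), Cars (-0.00992), Ddit3 (0.0184), Slc7a5 (-0.0316), Slc3a2 (-0.00143), Eif4ebp1 (-0.000256) and Bex2 (-0.0048). Of them only Slc7a5 passed the test there (limma adjusted p = 0.0435). Tatdn3 turned to -0.000711 up to mouse 212 and to -0.00376 in set B. Alternatives were run for 55 of the genes named, and those called kept their sign in the others. From mouse 213 alone 30 of the 55 were no longer called.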
